A study of Mus musculus with 10 samples.

Results

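The regions described here were 200 pairs of overlapping REST peaks whose rank among the peaks found in both genotypes was higher in 3xTg than in WT cortex by the widest margin, out of 2489 pairs in all. Each WT peak was paired with the 3xTg peak that shared the most bases with it, each 3xTg peak was used once, and chromosome Y was left out. The fold enrichment of each peak over its local background was converted to a percentile among the pairs, separately in each list. The 200 pairs with the largest 3xTg minus WT difference in percentile were taken as members, with ties settled by chromosome and start. The members were thus chosen by fold enrichment, and every value of fold enrichment, width and summit given for them is a description without a test.

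REST is a zinc finger repressor that binds a long DNA element called RE1 and brings histone deacetylases and other corepressors to the genes it occupies. It keeps neuronal genes silent outside the nervous system and remains present in aging neurons, where its targets include genes of cell death and stress resistance. An RE1 is made of a left and a right arm, and REST can also be found at regions without a full element, many of them at CpG-rich promoters.

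The data were ChIP-seq of REST with an antibody to its C-terminus in bulk cortex of female mice aged 11 months. WT littermates were compared with 3xTg mice, a model of Alzheimer's disease that carries mutant human APP and tau transgenes and a further knock-in allele. The Thy1 regulatory element that drives both transgenes is active mainly in neurons, and the study's 3xTg colony was a hybrid of the C57BL/6J and 129Sv/Ev strains. Each genotype had 4 ChIP replicates, each a pool of 4 cortices, and 1 input library. The deposited lists joined the 4 replicates of a genotype into 1 set of peaks, so no value of a peak has a replicate spread, and the depth of the libraries is unknown from the lists. In bulk cortex, binding in fewer cells and weaker binding per cell cannot be told apart. The WT list held 3006 peaks and the 3xTg list 5077 outside chromosome Y, 2504 WT peaks overlapped a 3xTg peak, and 15 of these were dropped because a 3xTg peak was already paired.

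Of the 200 members, 4 held an RE1 within the 300 bases centred on the 3xTg summit, with both strands searched and up to 5 of its 20 letters allowed to differ. These 4 sites are shown first because they are the members at which REST's own element was found. Each is given in mm10 (GRCm38) with 20 bases on either side, read 5′ to 3′ on the strand of the match. Capitals mark the letters of the site that match RE1, and its mismatched letters are in lower case. The first lies in an intron of 5031439G07Rik at chr15:84965747-84965806 on the plus strand, with 1 mismatch, its middle 3 bases from the summit. The second lies upstream of Gabbr2, a subunit of the GABA-B receptor, at chr4:46993009-46993068 on the plus strand, with 3 mismatches, 10 bases from the summit. The third lies in an intron of Phf21b, a PHD finger gene, at chr15:84854018-84854077 on the minus strand, with 4 mismatches, 50 bases from the summit. The last lies in an intron of Rims2, a scaffold of the presynaptic active zone, at chr15:39199366-39199425 on the plus strand, with 5 mismatches, 68 bases from the summit.
5031439G07Rik: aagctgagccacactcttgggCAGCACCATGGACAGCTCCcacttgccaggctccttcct
Gabbr2: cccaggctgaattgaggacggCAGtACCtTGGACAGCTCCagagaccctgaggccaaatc
Phf21b: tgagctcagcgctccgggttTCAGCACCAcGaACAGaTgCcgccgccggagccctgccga
Rims2: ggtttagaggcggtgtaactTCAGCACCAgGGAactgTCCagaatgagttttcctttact

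The pairs that rose most had no such site. The 120 bases around the 3xTg summit are shown for 4 of the 5 leading members because they carry the widest differences in rank, with capitals on any match to the shorter motifs searched. The closest match to RE1 within 150 bases of the summit had 8 mismatches at Kansl1, 8 at Ppfia2, 9 at Sipa1l1 and 8 at the region nearest Ets2. All 4 are given on the plus strand of mm10. Kansl1, a subunit of a histone acetyltransferase complex, has its window in an intron at chr11:104412466-104412585. Ppfia2, a liprin of the presynaptic active zone, has its window in an intron beside a start site at chr10:106632286-106632405. Sipa1l1, a GTPase-activating protein of the postsynaptic density, has its window in an intron at chr12:82312346-82312465. The region nearest Ets2 is intergenic, at chr16:95774238-95774357.
Kansl1: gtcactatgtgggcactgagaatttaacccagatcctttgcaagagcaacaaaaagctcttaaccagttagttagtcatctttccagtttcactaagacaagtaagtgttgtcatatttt
Ppfia2: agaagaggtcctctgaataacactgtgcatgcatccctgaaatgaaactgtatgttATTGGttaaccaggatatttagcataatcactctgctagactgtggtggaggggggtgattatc
Sipa1l1: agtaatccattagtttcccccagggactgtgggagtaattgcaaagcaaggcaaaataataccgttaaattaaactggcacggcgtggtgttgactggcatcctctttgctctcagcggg
Ets2_nearest: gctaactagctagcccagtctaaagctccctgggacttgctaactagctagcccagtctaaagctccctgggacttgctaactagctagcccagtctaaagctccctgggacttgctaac

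The capitals in the Ppfia2 window are a CCAAT box read on the other strand. The window nearest Ets2 is a tandem repeat with a unit of 38 bases, and 87.8% of its letters over 300 bases equal the letter 1 unit further on. How reads were placed in such a repeat was not tested.

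The promoter of Gsx1, a homeobox factor of interneuron progenitors, is shown because its 3xTg summit lay 19 bases from the start site and it ranked 9th by rise. RefSeq gives the 250 bases upstream on the plus strand of GRCm38.p6 at chr5:147188446-147188695. Capitals mark a match to the left arm of RE1, near the end of the stretch. The closest match to the full RE1 within 150 bases of the summit had 8 mismatches, so no RE1 was counted there.
Gsx1: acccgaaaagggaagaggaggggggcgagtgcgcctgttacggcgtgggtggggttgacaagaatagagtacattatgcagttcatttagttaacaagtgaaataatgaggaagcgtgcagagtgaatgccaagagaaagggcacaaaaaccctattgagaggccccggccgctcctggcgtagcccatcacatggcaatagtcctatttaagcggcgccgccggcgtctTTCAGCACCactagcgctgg

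The members lay near the floor of the WT list and well above that of the 3xTg list, with median percentiles of 22.9 among all WT peaks and 80.4 among all 3xTg peaks. Their WT fold enrichment ran from 6.02 to 8.44 with a median of 6.43, where the lowest peak in the WT list had 6. Their 3xTg fold enrichment ran from 11.5 to 26.9 with a median of 15.4, where the lowest peak in the 3xTg list had 8.5. The other 2289 pairs had medians of 7.94 in WT and 13.5 in 3xTg, so the members were lower than the other pairs in WT and higher in 3xTg, as the rule required. The 3xTg to WT ratio of fold enrichment was 1.9 to 3.85 among members, with a median of 2.34, against 1.67 in the other pairs. Of all 2489 pairs, 2477 had the higher value in 3xTg. A ratio of at least 2 was reached by 515 pairs, or 20.7%, and by 185 members, a count that the rule itself largely fixed.

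Among the pairs alone, the scale of the rule, the members went from a median of 16.9 in WT to 61.5 in 3xTg. The differences ran from 28.2 to 84.4 percentile points with a median of 39.4, and the 3 pairs just inside the limit were alike to those just outside. Inside were pairs in introns of Ano6 with 28.6 points, Pkd1 with 28.2 and Ttll7 with 28.2. Outside were an intergenic pair nearest C430002N11Rik with 28.2, a pair in an intron of Vps53 with 27.9 and a pair in an intron of Pkig with 27.9. The Pkd1, Ttll7 and C430002N11Rik pairs had the same fold enrichments, 6.62 in WT and 13.8 in 3xTg, and the order of the chromosomes settled which were taken.

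**Figure D1:**
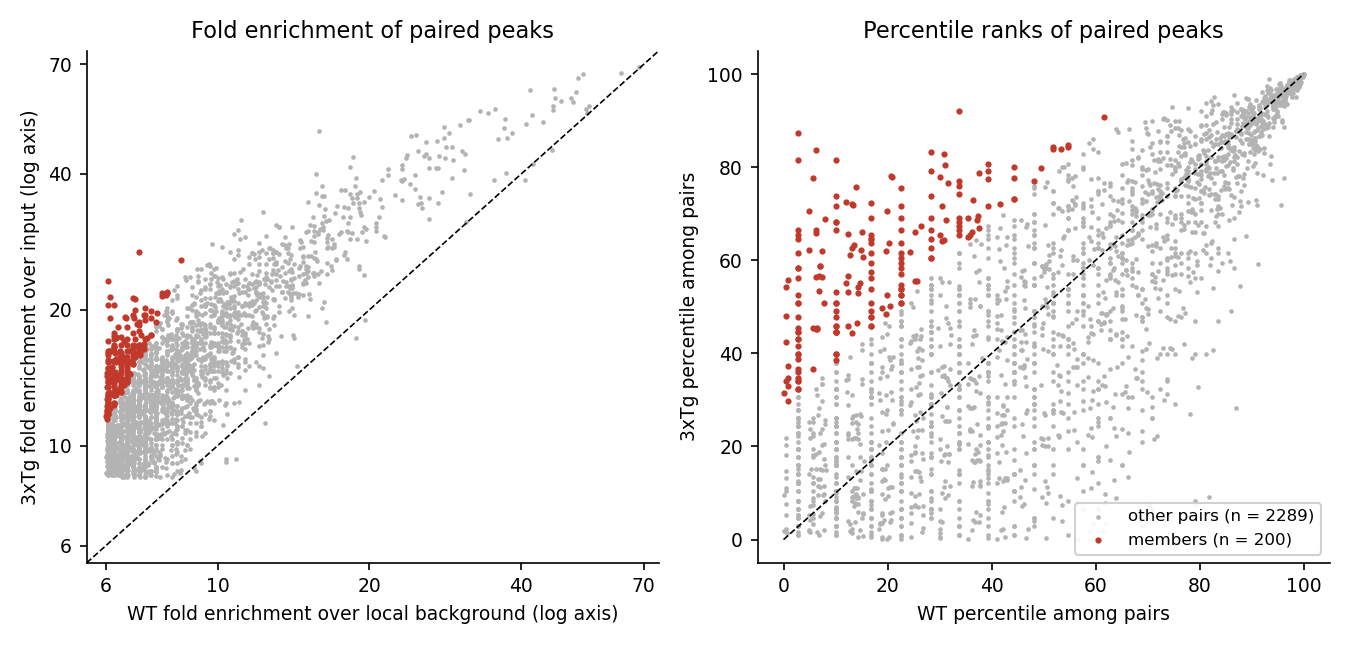
Each point is a pair of overlapping peaks. The left panel gives the fold enrichment over local background in WT and 3xTg on log axes, and the right the percentile among the 2489 pairs. The 3xTg axis on the left is labelled as over input but holds the same measure as the WT axis. The dashed line marks equal values. The 200 members (red) sit at the left edge of the WT range, 6.02 to 8.44, and above most pairs of the same WT value, and the columns of points on the right are WT values shared by many pairs.

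WT values near the floor were coarse. The lowest value common to many pairs, 6.05, was shared by 94 pairs of which 29 were members, and the next, 6.24, by 97 pairs of which 20 were members. This step of 0.189 in fold enrichment was worth 7.21 percentile points. In all, 174 of the 200 members had a WT fold enrichment under 7, as did 35.3% of all pairs. The members held 67 distinct WT values and 118 distinct 3xTg values.

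The leading 10 members were in or beside genes of several kinds. An intronic pair in Kansl1 rose from 6.05 in WT to 23.1 in 3xTg, from percentile 2.83 to 87.3. This gene neighbours Mapt, the mouse tau gene, and a separate pair in an intron of Mapt, 163304 bases away, had 7.28 in WT and 13 in 3xTg, a difference of 3.27 points that placed it 954th. The Ppfia2 pair went from 6.05 to 20.5 with its summit 182 bases from a start site, and an intergenic pair nearest the noncoding RNA Particl from 6.11 to 21.4.

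Sipa1l1 followed with 6.11 in WT and 19.2 in 3xTg, and the repeat nearest Ets2, 71891 bases from a start site, with 6.24 and 20.5. The pair at the shared promoter of Abhd14a and Abhd14b, hydrolase genes on opposite strands, had 6.06 and 17.1, with its summit 3 bases from a start site. Lpp and Wwtr1 encode an adhesion protein and the Hippo pathway coactivator TAZ. Their intronic pairs went from 6.24 to 17.8 and from 6.05 to 16.2.

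Gsx1 had 6.05 in WT and 16.1 in 3xTg, and an intronic pair in Cdc42se2, an effector of the GTPase Cdc42, had 6.34 and 18.3. In these 10 pairs the WT value spanned 6.05 to 6.34 and the 3xTg value 16.1 to 23.1. Summits in both lists lay within 100 bases of each other in 9 of them, and 507 bases apart at the pair nearest Particl.

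**Figure D2:**
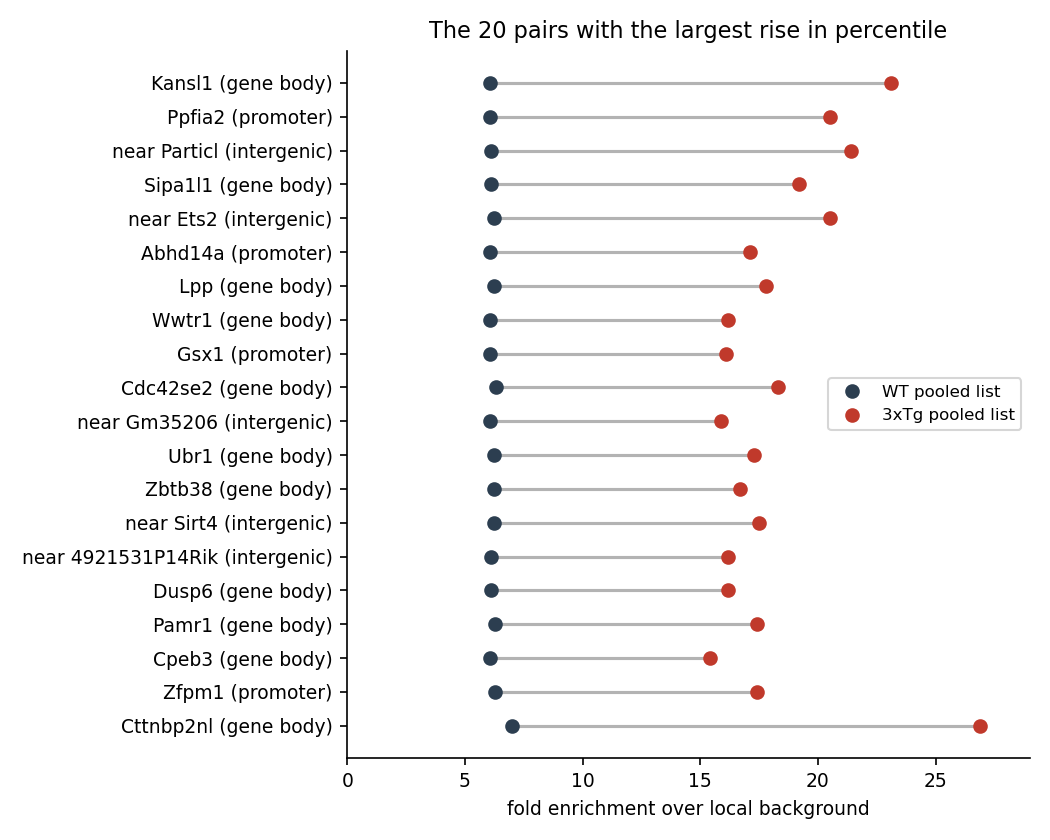
The 20 members with the largest rise in percentile are listed from the top down by gene, with the fold enrichment over local background in the WT (dark) and 3xTg (red) pooled lists on a linear axis from 0. The WT values sit between 6.05 and 7 while the 3xTg values run from 15.4 at Cpeb3 to 26.9 at Cttnbp2nl.

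Of the 5 members with the highest 3xTg values and a further one tied with the last of them, only Kansl1 was among the 10 leading members by rise. Cttnbp2nl, which encodes a partner of the STRIPAK phosphatase complex, had the highest 3xTg fold enrichment of any member, 26.9 against 7 in WT, and was 20th by rise. Its summit window was masked as repeat in full. An intronic pair in Camk4, a calcium and calmodulin-dependent kinase of neuronal nuclei, had 25.7 in 3xTg and 8.44 in WT, the highest WT value among the members, and was 190th. Kansl1 came next, followed by Cog6, a Golgi trafficking gene, with 21.9 against 7.94. Ash1l, a histone methyltransferase, and Creb5, a factor of the CREB and ATF family, both had 21.7, against 7.75 and 7.94. These high members started from WT percentiles of 51.8 to 61.6 apart from Cttnbp2nl at 33.7 and Kansl1.

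The paired peaks of most members centred on the same place. The WT and 3xTg summits lay within 100 bases of each other in 175 of 200 members, 87.5%, beside 89.6% of the other pairs. The median distance was 39.5 bases in members and 32 in the others, and 6 members had summits over 500 bases apart. The WT peak lay wholly inside the 3xTg peak in 172 members, 86%, beside 88.2% of the other pairs. Median widths were 564 bases in WT and 988 in 3xTg for the members, and 634 and 1095 for the other pairs. In 3 members and 12 other pairs the 3xTg peak spanned more than 1 WT peak, so those ranks compare unlike stretches.

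Fewer members than other pairs lay at promoters. The 3xTg summit was within 1 kb of a start site in 42 members, 21% (95% Wilson interval 15.9 to 27.2), and in 764 of the 2289 other pairs, 33.4%. The difference was -12.4 percentage points (95% interval -17.8 to -5.93), and Fisher's exact test over pairs, two-sided, gave an adjusted p of 0.00139 over 16 features tested. Of the other members, 103 lay in gene bodies beyond 1 kb and 55 between genes, against 39.3% and 27.3% of the other pairs. By the base under the summit, 108 members, or 54%, were intronic, against 43.9% of the other pairs. The intervals and tests take pairs as units, cover counting error only, and say nothing of variation between mice.

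The members were also compared with other pairs from the middle of their range, cut at the 5th and 95th percentile of the members' own values, and all 200 members stayed in these comparisons. Over 924 other pairs at WT percentile 2.73 to 44.3, a set added after the data were seen, the promoter difference was -15.4 points with an adjusted p of 0.00012. Over 1002 other pairs at 3xTg percentile 35.9 to 82.9 it was -7.34 points and missed the threshold, with an adjusted p of 0.097. Against the 200 pairs that fell most in rank, 39.5% of which were at promoters, the members were again lower. When the pairs were split into 10 groups of nearly equal size by the difference in percentile, the share at promoters was 22.1% in the group with the largest rise and 39.1% in the group with the largest fall.

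**Figure D3:**
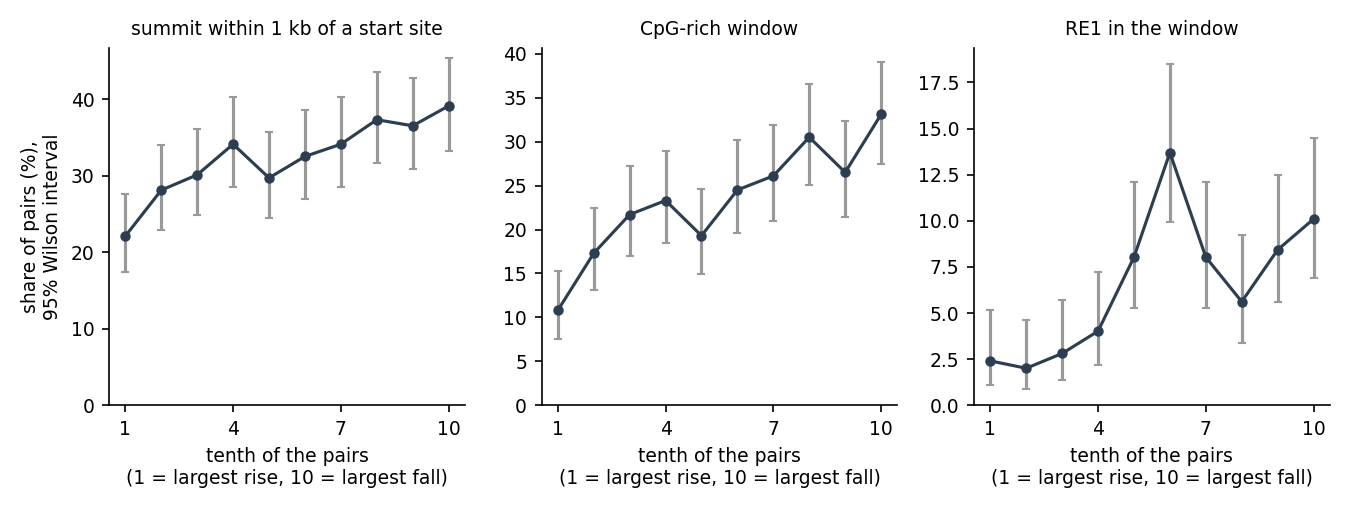
The pairs were divided into 10 groups by the 3xTg minus WT difference in percentile, from the largest rise (1) to the largest fall (10), and the points give the share of pairs in each group with a feature, with 95% Wilson intervals. From the first group to the last the promoter share goes from 22.1% to 39.1% and the CpG-rich share from 10.8% to 33.1%, while the RE1 share is 2.41% in the first and peaks at 13.7% in the sixth.

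CpG-rich sequence, the hallmark of housekeeping promoters, was also scarcer. CpG-rich windows had over 50% G and C and an observed to expected CpG ratio over 0.6. They were found at 21 members, 10.5% (6.97 to 15.5), and at 24.4% of the other pairs. The difference was -13.9 points (-17.9 to -8.62, Fisher's exact test, adjusted p = 1.6e-05). The GC box GGGCGG, the binding site of SP1, was found at 10.5% of members and 24.6% of the others, also with an adjusted p of 1.6e-05. Among promoter pairs alone, 17 of 42 members, 40.5%, had a CpG-rich window, against 65.7% of 764 other promoter pairs (Fisher's exact test, adjusted p = 0.0212). Outside promoters the shares were 2.53% and 3.74%, with an interval of the difference from -3.09 to 2.68 points. The median G and C content of the window was 45.5% in members and 48% in the other pairs, and its part in fold enrichment was not tested.

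RE1 was present at 2% of members (0.78 to 5.03) and at 158 of the other pairs, 6.9%, a difference of -4.9 points (-6.55 to -1.72, Fisher's exact test, adjusted p = 0.0131). This difference depended on the pairs compared. The other pairs with an RE1 were strong in both genotypes, with median percentiles of 73.4 in WT and 61.5 in 3xTg. A pair above percentile 71.8 in WT could not gain the 28.2 points a member needed, and 81 of the 158, or 51.3%, lay there, against 30.7% of all other pairs. Over the 924 other pairs at WT percentile 2.73 to 44.3 the RE1 share was 3.9%, and the difference of -1.9 points (-3.79 to 1.32) missed the threshold with an adjusted p of 0.464.

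The arms of RE1 were also searched alone, with at most 1 mismatch, and a full RE1 can hold both. The left arm TTCAGCACC was found at 8.5% of members and 15.4% of the other pairs (Fisher's exact test, adjusted p = 0.0183), and the right arm GGACAGCGC at 4.5% and 12.4% (adjusted p = 0.00139). Over the same 924 other pairs neither passed, with adjusted p of 0.316 and 0.144.

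AP-1 and MEF2 motifs gave higher shares in the members than in the other pairs, by differences that missed the threshold here. The AP-1 motif TGANTCA, bound by the Fos and Jun families, was at 39 members, 19.5%, and 14.1% of the other pairs. The MEF2 motif, an A and T-rich site of neuronal activity factors, was at 19 members, 9.5%, and 5.77% of the others. Both had an adjusted p of 0.0816 over all features, with intervals of the difference of 0.318 to 11.6 and 0.244 to 8.67 points. Against the 200 pairs that fell most, with 11% for AP-1 and 3.5% for MEF2, both passed with an adjusted p of 0.0453. MEF2 also passed where pairs had to share 50% of both peaks (10.5% against 5.57%, Fisher's exact test, adjusted p = 0.0298). It passed again where summits lay within 200 bases (10.5% against 5.66%, Fisher's exact test, adjusted p = 0.0275). These rules took 200 pairs anew and kept 124 and 188 of the members. The 10.5% is thus not a share of the members described here. MEF2 missed the threshold in every other setting. By Fisher's exact test the adjusted p was 0.0521 with 100 pairs taken, 0.164 with 300 and 0.224 over the range of 3xTg percentile. The 19 MEF2 matches among the members were all outside promoters, at 12% of the 158 members there and 7.67% of the other pairs. This difference missed the threshold by Fisher's exact test, with an adjusted p of 0.195.

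The other motifs gave small counts or small differences. The CCAAT box was at 40.5% of members and 36.7% of the other pairs. The E-box CACGTG was at 3.5% and 6.38%. ETS sites CCGGAAGT were at 1 member and 71 other pairs, with an adjusted p of 0.0621. The CTCF site was at 3 members, the CRE TGACGTCA at 2 and the NRF1 core GCGCATGCG at 1. The YY1 site AAGATGGCG and the EGR site GCGTGGGCG were at 0 of 200 members, for which the Wilson interval reaches 1.88%, and at 12 and 5 of the other pairs. None of these passed in this comparison.

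Against peaks present in the 3xTg list alone no feature was told apart at this number of regions. Of the 2588 such peaks, 444 had a fold enrichment within the members' full range, 11.5 to 26.9, but weaker on the whole, with a median of 12.6 against 15.4 in the members. Their summits were at promoters in 22.7%, their windows CpG-rich in 12.6% and RE1-bearing in 0.676%. The members differed from them by -1.75 points for promoters (-8.28 to 5.42), -2.11 for CpG-rich windows (-7.02 to 3.62) and 1.32 for RE1 (-0.452 to 4.39), and 0 of the 16 features passed the threshold by Fisher's exact test, with 0 at an unadjusted p under 0.05.

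**Figure D4:**
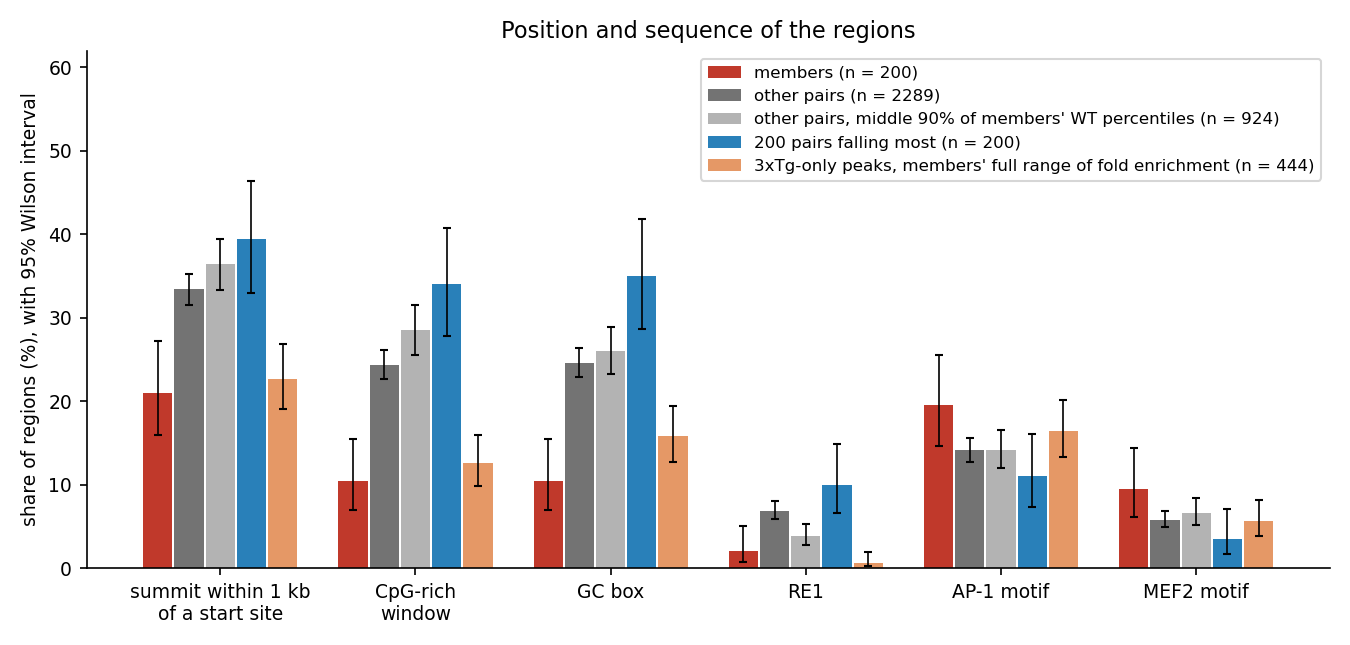
Bars give the share of regions with each feature and error bars the 95% Wilson interval, for the members, the other pairs, the other pairs in the middle 90% of the members' WT percentiles (2.73 to 44.3), the 200 pairs that fell most and the 3xTg-only peaks in the members' full range of fold enrichment. Members and 3xTg-only peaks stand close together for promoters, 21% and 22.7%, and CpG-rich windows, 10.5% and 12.6%, below the other sets of pairs.

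Members made up 5.21% of the 806 promoter pairs, and the counts in lists of genes, given beside that share without a test, were small. The lists were partial, so each count covers only the genes that its list held. Of 7 pairs within 1 kb of a start site in a list of autophagy and antioxidant genes, 2 were members. They were at Txn1, thioredoxin, with 6.05 in WT and 14.8 in 3xTg, and at Txnrd1, the reductase that recycles it, with 6.81 and 15.2. The Txnrd1 summit also lay near a start site of Gm38560. Fyco1, an adaptor of autophagosome transport, had a promoter member with 6.24 and 16.2 but was not in the list. Of 10 pairs at genes of the stress and unfolded protein response, 1 was a member, at the shared promoter of the small heat shock proteins Hspb2 and Cryab, with 6.06 and 15.5.

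Of 14 promoter pairs at proteasome and ubiquitin genes, 2 were members. Psmb5, a catalytic subunit of the proteasome, had 6.05 in WT and 12.9 in 3xTg, and Trim9, a brain ubiquitin ligase, had 6.62 and 14.2. Among ribosome and translation genes it was 1 of 16, at Rps15a with 6.62 and 14, and among RNA processing genes 1 of 21, at Snrpd3 with 6.04 and 11.5.

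Lists of neuronal genes gave at most 1 member each at promoters. Of 8 promoter pairs at ion channel genes, 1 was a member, at the sodium channel Scn1a, with 6.62 in WT and 15.7 in 3xTg. Of 2 in the list of neural transcription factors, 1 was a member, at Mef2a, with 6.11 and 14.5 and its summit 820 bases from the start site. This list did not hold Gsx1 or Scrt2, whose promoters also had members, with 16.1 and 17.6 in 3xTg. Of 11 promoter pairs at miRNA genes, 1 was a member, at Mir129-1, with 6.43 and 14.5. Promoter pairs in the list of neurotransmitter receptors gave 0 of 7 and in that of synaptic vesicle genes 0 of 6. The latter did not hold Ppfia2, whose promoter member had 6.05 in WT and 20.5 in 3xTg.

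When gene bodies were counted as well, a count added after the values were seen, members made up 8.02% of the 1809 pairs at promoters or in gene bodies. On that count ion channels gave 2 of 31, the second in an intron of the calcium channel subunit Cacnb1 with 6.31 in WT and 15.6 in 3xTg, receptors gave 2 of 21 and synaptic vesicle genes 1 of 19. The receptor members were in introns of Gabra4, a subunit of the GABA-A receptor, with 6.05 and 14, and of Gabbr2, with 6.43 and 15.9. The RE1 pair upstream of Gabbr2, 64862 bases from the intronic one, had 6.16 and 14.6 and lay outside this count. Rims2 had 6.52 and 14. Axon guidance genes gave 2 of 9 with gene bodies, Robo2 with 7 and 18.8 and Plxnc1 with 6.02 and 11.7.

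The list of chromatin genes gave 1 member of 20 promoter pairs and 5 of 36 with gene bodies. It did not hold Kansl1, Ash1l or Mbd2, whose gene bodies also had members. Kdm5c, an X-linked histone demethylase that acts with REST, was the promoter member, with 6.05 in WT and 12 in 3xTg. Phf21b, which holds an RE1, had 6.84 and 17.3. The remodelers Chd2, with 7 and 18.5, Chd7, with 7 and 16.1, and Smarca2, with 6.24 and 12.9, were intronic. The list of zinc finger genes gave 0 of 22 at promoters and 4 of 38 with gene bodies, led by Zbtb38 with 6.24 and 16.7. It did not hold Zfpm1 and Scrt2, zinc finger genes with members at their promoters. Zfpm1 had 6.29 in WT and 17.4 in 3xTg, and Scrt2 had 7.38 and 17.6.

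Other lists had too few pairs for a count of 0 to stand apart from the 5.21% of all promoter pairs. Genes of the REST complex had 3 promoter pairs and tau kinases and amyloid genes 2 each, with 0 members among them, and the mouse genes that relate to the transgenes had no promoter pair. Mitochondrial genes gave 0 of 7, histone genes 0 of 6 and cytoskeleton and transport genes 0 of 5. The cell cycle list gave 0 of 3, or 1 of 12 with gene bodies. That member was in an intron of Cdc40, with 7 in WT and 16.6 in 3xTg, a gene of pre-mRNA splicing despite its name. Promoter pairs of apoptosis genes gave 0 of 6 and immediate early genes 0 of 3, although introns of Bcl2, with 6.03 in WT and 14.2 in 3xTg, and Dusp6, with 6.11 and 16.2, held members. With gene bodies counted, markers of neurons had 6 pairs, of astrocytes 3, of oligodendrocytes 1 and of microglia and vascular cells 0, and 0 of these pairs were members.

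Members lay on all 20 chromosomes analysed and some lay close together. There were 10 cases of neighbouring members within 200 kb of each other, and the other pairs were not counted this way. This count alone does not set the members apart. A pair of members 13999 bases apart lay in Ttll7, a tubulin glutamylase gene, and others lay in Rasal2, 114444 bases apart. The RE1 members of Phf21b and 5031439G07Rik were 111682 bases apart. At the promoter of Fancc, of the Fanconi anemia pathway, and in its gene body, members lay 95899 bases apart. The share of autosomal pairs that were members ran from 4.57% on chromosome 11 and 4.59% on chromosome 8 to 12.5% on chromosome 10. It was 4 of 24 on the X chromosome, and members made up 8.04% of all pairs. These shares were not tested.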

How the data were processed

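The authors aligned reads to mm10 (the labels name BWA for replicates 1 and 2 and the inputs, and STAR 2.7.0a for replicates 3 and 4), called peaks with MACS on the joined replicates and removed blacklisted regions. The methods state a fold enrichment over 5 and a q-value under 0.01. The deposited lists give per peak a score, the fold enrichment (a ratio), the −log10 p-value, the −log10 q-value and the summit offset. The score and p-value were not used. The members and gene lists were chosen with earlier results of these data known. Chromosome Y, with 4 WT and 9 3xTg peaks, was left out. Curated RefSeq transcripts and sequence of GRCm38.p6 gave start sites and windows of 300 bases. Shares were compared over pairs by Fisher's exact test with Benjamini-Hochberg adjustment over 16 features (15 within a position class), at 0.05. No test compared fold enrichment between genotypes. Named members were the 10 with the largest difference, the 5 highest in 3xTg, those with an RE1, those at the limit and those at genes of the lists. Others were named after their values were seen. Tests ran in scipy 1.17.1 and statsmodels 0.14.6 (Python 3.11.15), sequence was read with pysam 0.24.0, and programs were tested on simulated data.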

Additional observations from a re-analysis of the deposited data

How the results depend on the processing

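The share differences below are members minus the comparison set, in percentage points. The members' ranges of percentile run from the 5th to the 95th percentile of their values. Leaving out or splitting replicates could not be done because each list joins the 4 replicates. No paired analysis was possible because the lists carry no replicate columns. The promoter difference kept its direction and passed the threshold in 15 of 17 alternatives, the CpG-rich difference in 14 of 16 and the RE1 difference in 9 of 19, not counting the values reported. The promoter difference missed it in the members' range of 3xTg percentile (-7.34) and, in a comparison chosen after seeing the data, against 3xTg-only peaks (-1.75). The CpG-rich difference missed it outside promoters (-1.21) and against 3xTg-only peaks (-2.11). The RE1 difference missed it with 100 pairs taken (-3.66), by log2 ratio (-3.82), in the members' ranges of mean percentile (-3.74) and 3xTg percentile (-3.99), at the WT summit (-3.86), over whole 3xTg peaks (-3.41), in promoter pairs (-7.98) and outside them (-3.83), and, added after seeing the data, in the members' range of WT percentile (-1.9), and it reversed against 3xTg-only peaks (1.32). The count of motifs other than the full RE1 that passed was 3, namely the GC box and the left and right arms of RE1. It was 6 against the pairs falling most, and 0 in promoter pairs, outside promoters and against 3xTg-only peaks (2 to 4 elsewhere), with MEF2 past the threshold against the pairs falling most, with summits within 200 bases and with 50% overlap, and AP-1 in the first of these alone. The causes were not tested. Of the 200 members, 114 were kept by log2 ratio and 124 where a pair had to share 50% of both peaks. The other rules that changed the ranking kept 160 to 196. The 100 members kept when 100 pairs were taken, and the 200 kept with 300 pairs, were fixed in advance by the order. Neither replicate spread nor depth is known from the lists, so the error of a single member's rank cannot be given.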
